A study of Bos taurus with 9 samples.

Results

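Expression of 8 cell surface heparan sulfate proteoglycan genes was followed in the liver of lactating Holstein cows, the glypicans *GPC3*, *GPC1*, *GPC4* and *GPC6* and the syndecans *SDC1*, *SDC2*, *SDC3* and *SDC4*. They were found by symbol among the 28786 genes listed with read counts, and all 8 had a row. *GPC3* and *SDC1* were chosen by their rise in both treated groups in these same samples. Their difference from the control cows is therefore given as a description without a p-value. Calls of differential expression there are stated to show their dependence on the tool, and are no support for the rise. The other 6 genes, called paralogs here, were taken from the same protein families to ask whether that rise was shared. Control cows were kept at thermoneutrality (TN), the pair-fed cows (PF) were also kept at thermoneutrality but were given only as much feed as the heat-stressed cows ate, and the third group was under heat stress (HS). All cows were lactating, were first acclimated together at thermoneutrality and then spent the same period in their condition. One polyA RNA library was made from the liver biopsy of each cow, with 3 cows in every group (n = 3) and 9 in all. The age of the cows is not given in the sources used here.

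Heparan sulfate proteoglycans are proteins that carry long, sulfated sugar chains. Glypicans are held at the outer face of the cell membrane by a lipid (GPI) anchor, whereas syndecans cross the membrane and reach the cytoskeleton and trafficking machinery with a short tail. The chains bind growth factors, Wnt and hedgehog proteins and lipoproteins, and both families can be cut from the cell and released. In the liver, syndecan-1 on hepatocytes takes part in the uptake of triglyceride-rich lipoprotein remnants, and glypican-3 is known as a protein of the fetal liver and of hepatocellular carcinoma that restrains hedgehog signalling.

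By RefSeq for ARS-UCD2.0, which is not the build used for alignment (ARS-UCD1.2), *GPC3* and *GPC4* are direct neighbours on chromosome X, and *GPC6* follows the glypican gene *GPC5* on chromosome 12. The 4 syndecan genes lie on 4 different chromosomes and overlap no annotated gene. *GPC3* overlaps 5 annotated genes, of which 3 were listed in the counts, with 46 counts in all 9 cows together. Positions are not given because the builds differ. *GPC3* was also a target of the RT-qPCR of the study, and its primer pair, which marks the part of the transcript that was amplified there in a 115 bp product, is shown in 5′ to 3′ direction. RT-qPCR values were not analysed here.
GPC3 forward primer: agtgctttgcctggctacat
GPC3 reverse primer: ttccattcctcgctgccttt

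The libraries held 16874444 to 22557047 counts. TN replicate 1 stood apart from the other libraries. Its coordinate on the first principal component was -60.6, whereas the other 8 lay between -10.8 and 22.9. The summed level of 8 hepatocyte marker genes (*ALB*, *APOA1*, *TTR*, *TF*, *SERPINA1*, *APOB*, *FGB* and *CPS1*) was 17288 counts per 1e+06 counts of the library (CPM) in that cow and 59965 to 129091 CPM in the other 8. The 13 mitochondrial protein-coding genes took 13.6 to 22.2% of the counts in TN, 6.90 to 7.79% in PF and 3.84 to 5.68% in HS cows. Log2 fold changes of family members against TN are therefore also given without TN replicate 1 where they rest on that cow. Those of all other genes against TN include that cow, and their values without it are not given here. In a biopsy, fewer cells of a type and less RNA per cell cannot be told apart. Levels are TMM-normalized CPM and are compared between cows, not between genes, because gene lengths were not used.

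*GPC3* was higher in both treated groups than in TN cows. Its level was 33.6, 116 and 124 CPM in TN replicates 1, 2 and 3, 404, 160 and 448 CPM in PF, and 261, 595 and 594 CPM in HS. Every PF and HS cow lay above every TN cow, PF replicate 2 being closest to the TN cows and HS replicate 1 falling between the PF cows. The mean was 91.1 ± 50.0 CPM (SD, n = 3) in TN, 337 ± 155 in PF and 483 ± 192 in HS. The log2 fold change against TN was 2.40 with a standard error (SE) of 0.53 in HS and 1.89 with an SE of 0.52 in PF. Without TN replicate 1 it was 2.01 in HS and 1.49 in PF. These contrasts share the 3 TN cows and are the ones by which the gene was chosen. *GPC3* met the criteria of a differentially expressed gene (DEG, a fold change over 1.5 and a false discovery rate, FDR, under 0.1) against TN with DESeq2 but not with edgeR, the main test here, in either treated group. Between HS and PF, the log2 fold change was 0.51 with a 95% interval from -0.43 to 1.46 (edgeR FDR = 1.00). A difference between heat stress and feed restriction was thus not detectable for *GPC3*. The choice required a rise in both treated groups, so this contrast is not independent of it.

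**Figure D1:**
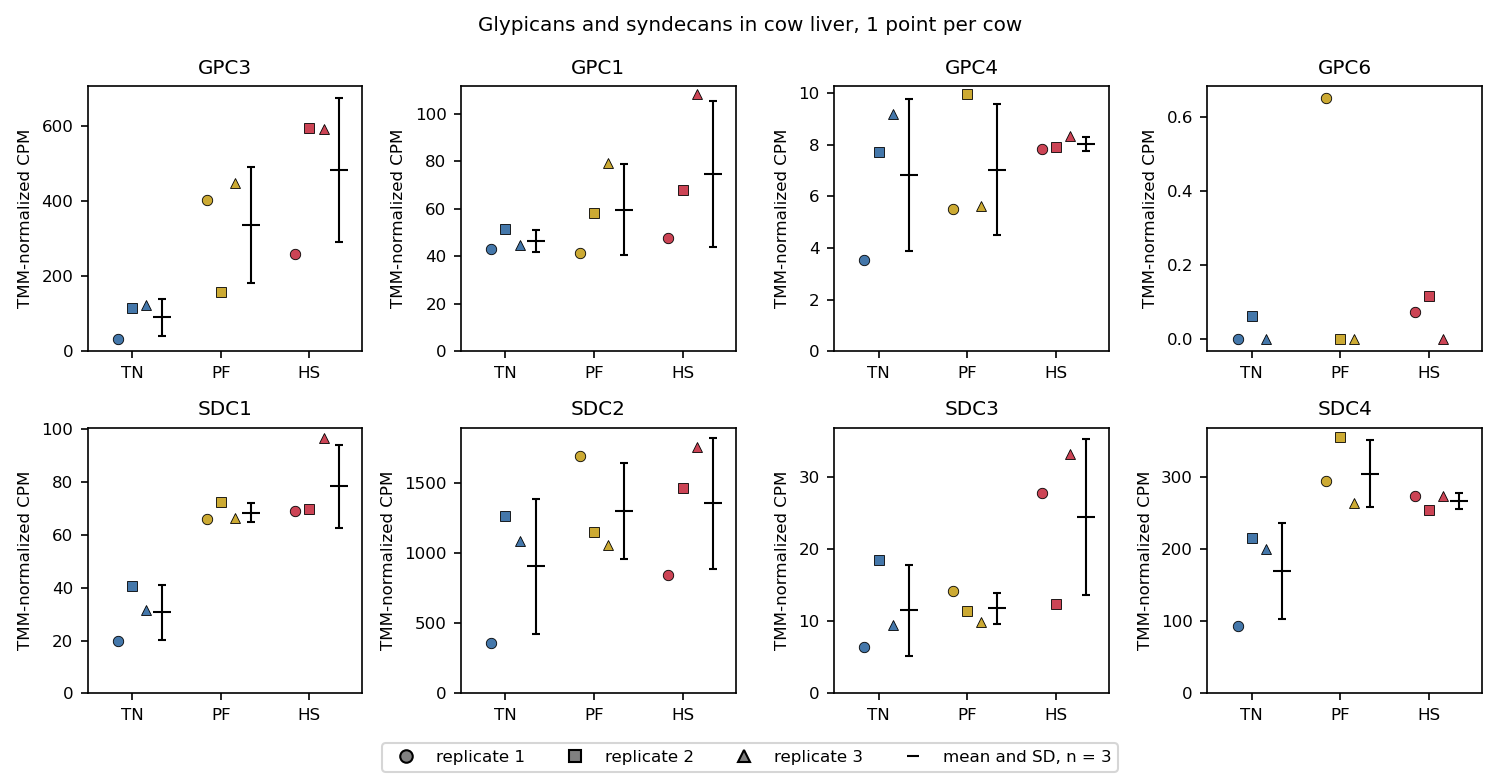
Level of each of the 8 genes, in TMM-normalized CPM on a linear axis of its own, in the 3 TN, 3 PF and 3 HS cows, with the mean and SD of each group beside the points (no mean for GPC6, which had counts in 4 cows). All PF and HS points of GPC3, SDC1 and SDC4 lie above the TN points, whereas the groups overlap for GPC1, GPC4, SDC2 and SDC3.

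*GPC1*, the founding glypican and a co-receptor of fibroblast growth factors, had 43.1, 51.6 and 44.8 CPM in TN, 41.3, 58.4 and 79.4 CPM in PF and 47.8, 68.0 and 108 CPM in HS. The lowest cow of each treated group lay within the TN cows or below them, and the spread was widest in HS. Its log2 fold change was 0.67 (SE 0.30) in HS against TN with a 95% interval from -0.01 to 1.34 (edgeR FDR = 0.522), and 0.36 (SE 0.28) in PF against TN with an interval from -0.26 to 0.98 (edgeR FDR = 0.754). *GPC1* passed neither test. Without HS replicate 3 its log2 fold change in HS was 0.30, and without PF replicate 3 that in PF was 0.11.

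*GPC4*, the glypican gene beside *GPC3*, showed no such pattern. Its level was 3.53, 7.72 and 9.18 CPM in TN, 5.50, 9.95 and 5.61 CPM in PF and 7.83, 7.89 and 8.34 CPM in HS. The 3 groups overlapped, with the lowest value in TN replicate 1 and the highest in PF replicate 2. The log2 fold change against TN was 0.23 (SE 0.35) in HS, with a 95% interval from -0.56 to 1.01 (edgeR FDR = 0.832), and 0.05 (SE 0.41) in PF, with an interval from -0.85 to 0.94 (edgeR FDR = 0.977). Without TN replicate 1 the sign turned, to -0.08 in HS and -0.26 in PF.

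The ratio of the counts of 2 genes within a cow does not depend on library size. For every count of *GPC4* there were 9.51, 15.0 and 13.5 counts of *GPC3* in TN, 73.4, 16.1 and 79.9 in PF and 33.3, 75.3 and 71.2 in HS. PF replicate 2 was close to the TN cows, and the other 5 treated cows were well above them. Against *GPC1* the ratio was 0.780, 2.24 and 2.76 in TN, 9.80, 2.73 and 5.65 in PF and 5.46, 8.74 and 5.49 in HS, and here PF replicate 2 lay within the TN range.

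The remaining glypicans were close to the detection limit. *GPC6* had 0, 1 and 0 counts in TN, 11, 0 and 0 in PF and 2, 2 and 0 in HS, did not pass the filter on low counts in any comparison and is given no fold change. *GPC5* had 7, 2 and 4 counts in TN, 6, 5 and 9 in PF and 0, 0 and 7 in HS. *GPC2* had 0 counts in all 9 cows. A count of 0 allows up to 3 counts, which is 0.111 to 0.202 CPM in these libraries, for counting error only.

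*SDC1* was higher in both treated groups than in TN cows. Its level was 19.9, 40.5 and 31.6 CPM in TN, 66.1, 72.5 and 66.6 CPM in PF and 69.1, 69.8 and 96.6 CPM in HS. All 6 treated cows lay above the TN cows, and 5 of them fell within a narrow band, with HS replicate 3 above it. The mean was 30.7 ± 10.3 CPM (SD, n = 3) in TN, 68.4 ± 3.60 in PF and 78.5 ± 15.7 in HS. The log2 fold change against TN was 1.34 (SE 0.29) in HS and 1.16 (SE 0.29) in PF, and without TN replicate 1 it was 1.12 and 0.93. As with *GPC3*, these contrasts fixed the choice of *SDC1*, and the gene met the DEG criteria against TN with DESeq2 but not with edgeR. Between HS and PF the log2 fold change was 0.19 with a 95% interval from -0.31 to 0.70 (edgeR FDR = 1.00), so no difference was detectable. For *SDC1* too, this contrast is not independent of the choice.

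*SDC4*, the syndecan of focal adhesions, came closest to *SDC1*. It had 93.4, 215 and 200 CPM in TN, 295, 355 and 264 CPM in PF and 274, 254 and 274 CPM in HS. Every treated cow was above every TN cow, while HS and PF overlapped. Its log2 fold change was 0.84 (SE 0.37) in PF against TN, with a 95% interval from 0.04 to 1.65, and did not pass the adjustment over all genes (edgeR FDR = 0.708). In HS against TN it was 0.65 (SE 0.34), with an interval from -0.13 to 1.42 (edgeR FDR = 0.568). Without TN replicate 1 the log2 fold change of *SDC4* was 0.36 in HS and 0.56 in PF.

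*SDC2*, a syndecan of hepatocytes and mesenchymal cells, varied as much within groups as between them. Its level was 361, 1267 and 1090 CPM in TN, 1697, 1154 and 1059 CPM in PF and 847, 1464 and 1758 CPM in HS. TN replicate 1 was far below the other 8 cows, which overlapped. The log2 fold change against TN was 0.57 (SE 0.52) in HS, with a 95% interval from -0.59 to 1.74 (edgeR FDR = 0.713), and 0.52 (SE 0.47) in PF, with an interval from -0.50 to 1.55 (edgeR FDR = 0.776). It was 0.20 and 0.15 without TN replicate 1.

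*SDC3* followed neither *GPC3* nor *SDC1*. It had 6.44, 18.5 and 9.54 CPM in TN, 14.1, 11.4 and 9.89 CPM in PF and 27.8, 12.3 and 33.2 CPM in HS. The PF cows lay within the TN range, and 2 of the 3 HS cows were above all other cows. The log2 fold change of *SDC3* was 0.04 (SE 0.37) in PF against TN (edgeR FDR = 0.978), 1.08 (SE 0.44) in HS against TN (edgeR FDR = 0.503) and 1.04 (SE 0.34) in HS against PF, with a 95% interval from 0.29 to 1.80 (edgeR FDR = 0.669). None of these passed the adjustment over all genes.

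Markers of Kupffer cells and macrophages were also higher in HS than in PF cows. The summed level of the 7 markers was 1176 to 2695 CPM in TN, 969 to 1637 CPM in PF and 1719 to 3034 CPM in HS cows. All 7 had a positive log2 fold change in HS against PF, with a median of 0.96, and 6 of them had an unadjusted p under 0.05, beside 5.32% of all genes, although none was a DEG with edgeR or with DESeq2. The scavenger receptor gene *MARCO* had 74.1, 129 and 44.7 CPM in PF and 138, 143 and 329 CPM in HS. The complement receptor gene *VSIG4* had 8.94, 7.32 and 4.89 CPM in PF and 18.1, 11.6 and 14.2 CPM in HS. In HS against TN all 7 markers were positive too, with a median of 0.45. None was a DEG there with edgeR, and DESeq2 called 1, *MARCO* (FDR = 0.0119), beside 1.75% of all genes. In PF against TN 1 was positive and 6 were negative. The part of Kupffer cells and macrophages in the level of *SDC3* was not tested.

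**Figure D2:**
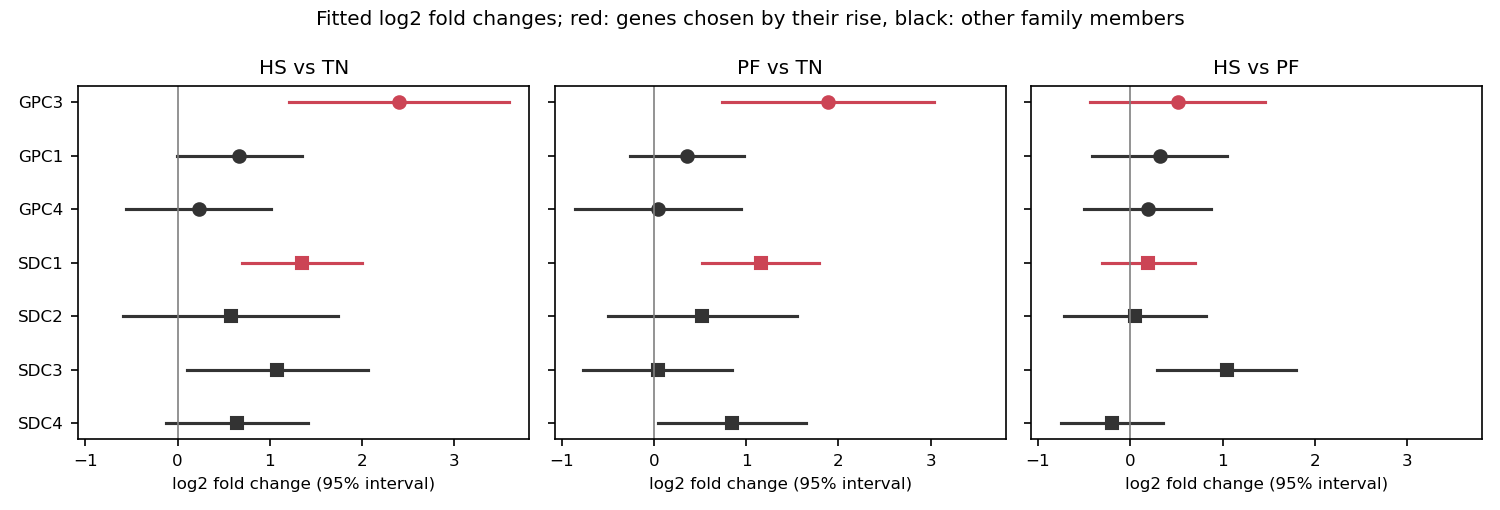
Log2 fold change (points, circles for glypicans and squares for syndecans) with its 95% interval (lines) for the 7 genes that passed the filter on low counts, in HS vs TN, PF vs TN and HS vs PF, fitted on 3 cows per group. GPC3 and SDC1, in red, were chosen by their rise against TN, and the intervals of GPC1, GPC4 and SDC2, in black, include 0 in all 3 panels.

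Of the 6 paralogs, 5 passed the filter on low counts and none was a DEG in any comparison, with edgeR or with DESeq2. In HS against TN, the edgeR criteria were met by 0.0892% of all genes tested and the DESeq2 criteria by 1.75%. The values for PF against TN were 0% and 0.555%, and for HS against PF 0.0276% and 0.771%. One paralog in each comparison had an unadjusted edgeR p under 0.05, namely *SDC3* in HS against TN, *SDC4* in PF against TN and *SDC3* in HS against PF, where 9.36%, 6.88% and 5.32% of all genes did. In one test over the 3 groups, no paralog passed and 0.0464% of all genes did, whereas 1 paralog, *SDC3*, had an unadjusted p under 0.05 (edgeR FDR = 0.579) beside 7.86% of all genes. *SDC4* was the 1 paralog of which every HS cow lay above every TN cow, as did 8.37% of all genes, and the 1 of which every PF cow lay above every TN cow, as did 6.81%. No member had every HS cow above every PF cow, which held for 5.95% of all genes.

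All 5 tested paralogs had a positive log2 fold change in HS and in PF against TN. The median was 0.65 in HS and 0.36 in PF, beside -0.01 over all genes tested in each of these comparisons, which share the TN cows. Without TN replicate 1, 4 of 5 were positive in HS (not *GPC4*) with a median of 0.36, and 3 of 5 in PF (not *GPC4* or *SDC3*) with a median of 0.15. In HS against PF the median was 0.19, beside 0.01 over all genes. Ranked with TN replicate 1 included among all genes tested in HS against TN, the log2 fold changes of *SDC3*, *GPC1*, *SDC4* and *SDC2* lay at percentiles 97.4, 92.2, 91.8 and 89.7, and *GPC4* lay at 70.2. In PF against TN, *SDC4* lay at 96.4, *SDC2* at 88.5, *GPC1* at 79.4, *GPC4* at 54.7 and *SDC3* at 54.3. *GPC3* and *SDC1* lay at 99.7 and 98.6 in HS and at 99.8 and 98.6 in PF, which is what they were chosen for.

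Within a cow, the count of *SDC1* was 0.213, 0.188 and 0.158 times that of *SDC4* in TN, 0.224, 0.204 and 0.252 times in PF and 0.252, 0.275 and 0.353 times in HS. The 3 HS cows were above the 3 TN cows, and PF replicate 2 fell within the TN range. Relative to *SDC2* it was 0.0552, 0.0320 and 0.0290 times in TN, 0.0389, 0.0629 and 0.0629 times in PF and 0.0816, 0.0476 and 0.0550 times in HS, and the groups overlapped.

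Since the hepatocyte markers also differed between cows, each gene was set against their sum, in CPM per 1000 CPM of the 8 markers. This scale was added after the data were seen, and *ALB* alone made up 8768 to 82515 CPM of the sum. *GPC3* was then at 1.94, 1.47 and 1.88 in TN, 3.38, 1.80 and 5.14 in PF and 4.35, 7.82 and 4.60 in HS. TN replicate 1 was no longer apart from the other TN cows, all HS cows stayed above them, and PF replicate 2 fell among them. The mean log2 difference of *GPC3* from TN on this scale was 1.62 in HS and 0.85 in PF.

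*SDC1* was at 1.15, 0.513 and 0.480 per 1000 CPM of markers in TN, 0.552, 0.817 and 0.764 in PF and 1.15, 0.918 and 0.748 in HS. TN replicate 1 became as high as the highest HS cow, and the groups overlapped. The mean log2 difference from TN was 0.49 in HS and 0.09 in PF. *SDC4* was at 5.40, 2.73 and 3.04 in TN, 2.46, 4.00 and 3.03 in PF and 4.57, 3.34 and 2.12 in HS, so that its groups overlapped too, with a log2 difference from TN of -0.16 in HS and -0.20 in PF. Of the 8 hepatocyte markers, 7 had a positive log2 fold change in HS and 8 in PF against TN, with medians of 0.75 and 0.64, and none had an unadjusted p under 0.05 or was a DEG with edgeR or DESeq2. What part the hepatocyte content of the biopsies had in the level of *SDC1* and *SDC4* was not tested.

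**Figure D3:**
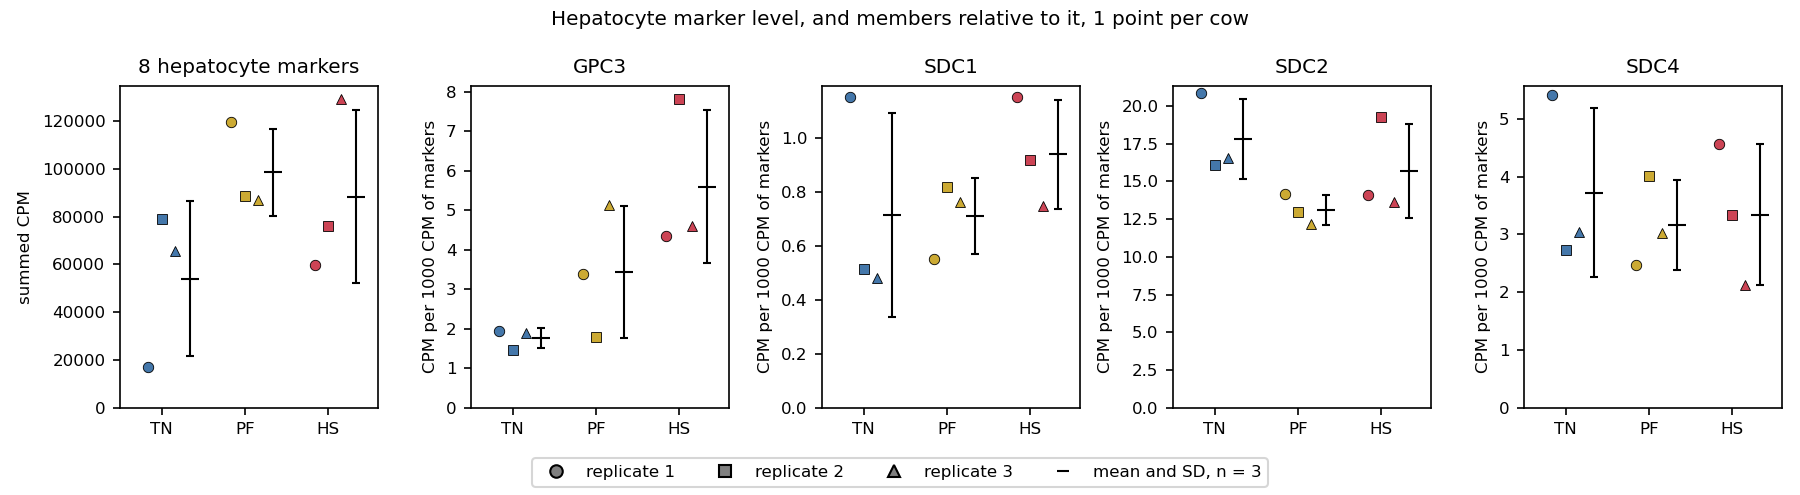
Summed level of the 8 hepatocyte markers in CPM, and GPC3, SDC1, SDC2 and SDC4 in CPM per 1000 CPM of those markers, in each TN, PF and HS cow with the mean and SD of 3 cows. TN replicate 1 has the lowest marker sum, and the HS points lie above the TN points for GPC3 but not for SDC1, SDC2 or SDC4.

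Other cells that may be in a biopsy were followed by their markers as well. Plasma cells are known to carry syndecan-1, and the summed level of their 6 markers was 70.7 to 145 CPM in TN, 46.8 to 117 CPM in PF and 83.7 to 117 CPM in HS cows, and the groups overlapped. The bile duct list had 48.9 to 136, 43.0 to 91.7 and 20.7 to 110 CPM in TN, PF and HS, and the stellate cell and fibroblast list 266 to 431, 213 to 360 and 183 to 444 CPM. Endothelial markers summed to 490 to 683, 533 to 727 and 496 to 720 CPM, lymphocyte markers to 56.5 to 87.8, 52.4 to 65.6 and 63.0 to 73.7 CPM, and mesothelial markers to 7.10 to 40.0, 13.8 to 16.8 and 9.35 to 38.4 CPM. The 5 skeletal muscle markers together did not exceed 0.296 CPM and the 4 adipose markers did not exceed 4.32 CPM in any cow.

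The genes whose level was most like that of *GPC3* over the 9 cows were named by Pearson's r of log2 CPM among 15072 genes. They were *SULT1C4*, a cytosolic sulfotransferase (r = 0.966), *METTL23*, a methyltransferase (0.966), *DGAT2*, which makes triglycerides (0.964), the uncharacterized *LOC100847780* (0.964) and *POFUT1*, which adds fucose to Notch (0.962). *SULT1C4* had 31.4, 64.2 and 77.5 CPM in TN, 170, 103 and 184 CPM in PF and 173, 186 and 172 CPM in HS, with the lowest treated cow again PF replicate 2. Among the family, *SDC1* had r = 0.897 with *GPC3*, *SDC2* 0.806, *SDC4* 0.762, *GPC1* 0.627, *SDC3* 0.536 and *GPC4* 0.380. The points share the group differences and TN replicate 1, and the values are descriptions.

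The genes most like *SDC1* were *PEX11A*, which acts in peroxisome division (r = 0.982), *COPG1*, a subunit of the COPI vesicle coat (0.972), *LOC101902701* (0.968), *ANXA6*, a membrane-binding annexin (0.968), and *CCDC47*, a protein of the endoplasmic reticulum (0.966). *PEX11A* had 1.70, 3.21 and 2.98 CPM in TN, 6.16, 5.31 and 5.40 CPM in PF and 5.28, 5.44 and 6.59 CPM in HS. Its 6 treated cows lay above the TN cows in a narrow band, as those of *SDC1* did except HS replicate 3. *SDC4* had r = 0.893 with *SDC1*, *SDC2* 0.759, *SDC3* 0.663, *GPC1* 0.638 and *GPC4* 0.515.

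Genes around the family were taken from 15 lists with 117 genes that had a row, most of them genes that build, edit, release and use the heparan sulfate chains, together with the 2 other glypicans, 7 fetal liver genes and 10 cell division genes. In HS against TN, 99 of them were tested and none was a DEG with edgeR, whereas DESeq2 called *UGP2* and *AXIN2*, beside 1.75% of all genes it tested. An unadjusted edgeR p under 0.05 was seen for 6 of the 99 with a higher and 6 with a lower level in HS, beside 9.36% of all genes in either direction. In PF against TN, 98 were tested, none was a DEG with edgeR, *UGP2* was one with DESeq2 (0.555% of all genes), and such a p was seen for 4 genes with a higher level in PF (*UGP2*, *KLB*, *FGF21* and *FGF1*) and 8 with a lower level, among them the cell division genes *CCNA2*, *BUB1* and *MKI67*, beside 6.88% of all genes. In HS against PF, 98 were tested, none was a DEG with edgeR, *SDCBP2* was one with DESeq2 (0.771% of all genes), and such a p was seen for 4 genes with a higher level in HS (*SDCBP2*, *GLCE*, *SHH* and *DHH*) and 2 with a lower level (*FGF21* and *FGF1*), that is, 6 of 98 beside 5.32% of all genes. The medians were 0.07, -0.06 and 0.04, close to those of all genes. In HS, 8 of the 99 had every cow above every TN cow (8.37% of all genes) and 7 had every cow below. In PF it was 11 of the 98 above (6.81% of all genes) and 8 below. The share of all genes with every treated cow below was not computed. *BUB1* passed the filter on low counts only in comparisons with TN, where it was higher.

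Chains are built from nucleotide sugars. *UGP2*, which makes the UDP-glucose from which UDP-glucuronic acid and UDP-xylose derive, had 33.5, 61.9 and 50.3 CPM in TN, 115, 118 and 156 CPM in PF and 105, 106 and 115 CPM in HS. All treated cows lay above the TN cows, as for *SDC1*, and as for 8.37% of all genes in HS and 6.81% in PF. The study names *UGP2* with *GPC3* and *SDC1* among genes changed in both HS and PF cows. The rise of *UGP2* was thus known beforehand, and its FDR values and calls are no independent support. Its log2 fold change against TN was 1.15 (SE 0.26) in HS (edgeR FDR = 0.272) and 1.41 (SE 0.31) in PF (edgeR FDR = 0.488), and the FDR with DESeq2 was 0.00849 and 0.00239. *UGDH*, the next enzyme, had 150, 159 and 228 CPM in TN, 315, 434 and 183 CPM in PF and 210, 194 and 274 CPM in HS, with overlapping groups and a log2 fold change of 0.79 (SE 0.37) in PF (edgeR FDR = 0.708). *SLC35B3*, a carrier of the sulfate donor into the Golgi, had a log2 fold change of -0.58 (SE 0.24) in HS against TN (edgeR FDR = 0.504).

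The linkage region that joins a chain to its protein is built step by step. Of its 7 genes, 6 had a positive log2 fold change in HS and 5 in PF against TN, with medians of 0.37 and 0.43. *B4GALT7*, which adds the first galactose, had 3.80, 6.30 and 4.29 CPM in TN, 6.45, 10.3 and 7.44 CPM in PF and 8.45, 9.06 and 11.8 CPM in HS. Its treated groups did not overlap with TN and lay above it, as for 8.37% of all genes in HS and 6.81% in PF. The log2 fold change of *B4GALT7* in HS was 1.01 (SE 0.30, edgeR FDR = 0.396). *B3GALT6*, which adds the second galactose, had a log2 fold change of 0.75 (SE 0.38) in PF (edgeR FDR = 0.709), and *B3GAT3*, which completes the linkage with glucuronic acid, one of 0.43 (SE 0.24) in PF (edgeR FDR = 0.709).

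Among the 5 genes of chain polymerization, *EXTL1* had a log2 fold change of -0.73 (SE 0.27) in HS against TN (edgeR FDR = 0.472), *EXTL3*, which starts the chain, one of -0.36 (SE 0.22), and *EXT1*, a subunit of the polymerase, one of 0.51 (SE 0.31), and none passed the adjustment. In TN, *EXT1* had 16.5 CPM in replicate 1 and 39.7 and 33.9 CPM in replicates 2 and 3. Of 16 genes of chain modification, 9 were tested in HS against TN, and 4 had 0 counts in all cows. *HS2ST1*, the uronic acid 2-O-sulfotransferase, had 13.5 to 14.5 CPM in TN, 16.8 to 22.9 CPM in PF and 17.6 to 20.8 CPM in HS. Every treated cow was above the TN cows, as for 8.37% of all genes in HS and 6.81% in PF. The log2 fold change of *HS2ST1* was 0.46 (SE 0.20) in HS (edgeR FDR = 0.522) and 0.41 (SE 0.25) in PF (edgeR FDR = 0.716). *GLCE*, the epimerase that acts before it, had a log2 fold change of 0.51 (SE 0.22) in HS against PF (edgeR FDR = 0.908). *HS3ST3B1*, a 3-O-sulfotransferase, did not exceed 1.35 CPM in any cow.

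Of the 4 genes that edit finished chains, 2 were tested. *SULF2*, an extracellular 6-O-endosulfatase, had a log2 fold change of -0.78 (SE 0.45) in HS against TN (edgeR FDR = 0.586), and *HPSE*, the heparanase that cuts the chains, one of -1.89 (SE 1.22) in PF against TN (edgeR FDR = 0.722). Their levels did not exceed 6.05 and 1.85 CPM in any cow.

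Release from the cell was represented by 9 genes. *GPLD1*, the plasma phospholipase that cleaves GPI anchors, had 27.6, 44.7 and 49.6 CPM in TN, 48.1, 60.8 and 54.2 CPM in PF and 46.6, 93.1 and 75.6 CPM in HS. Its log2 fold change was 0.81 (SE 0.31) in HS against TN (edgeR FDR = 0.487), and HS replicate 1 lay within the TN range. *NOTUM*, first described as an enzyme that releases glypicans and now known to inactivate Wnt proteins, had 84.8, 66.0 and 59.2 CPM in TN, 28.4, 41.4 and 39.7 CPM in PF and 42.8, 35.8 and 65.5 CPM in HS. Every PF cow lay below every TN cow, for which no share of all genes was computed. The log2 fold change of *NOTUM* in PF was -0.94 (SE 0.27, edgeR FDR = 0.693). *MMP14*, a membrane protease that can shed syndecan-1, had a log2 fold change of 0.56 (SE 0.32) in HS against PF (edgeR FDR = 0.991).

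Of the proteins that bind the syndecan tail, *SDCBP2* (syntenin-2) differed most between HS and PF. It had 8, 10 and 9 counts in TN, 0, 1 and 3 counts in PF and 64, 32 and 13 counts in HS, that is, 0.358, 0.618 and 0.537 CPM in TN, 0, 0.0559 and 0.153 CPM in PF and 2.36, 1.87 and 0.875 CPM in HS. Every HS cow lay above every other cow, and every PF cow below. Over all genes, every HS cow lay above every PF cow in 5.95% and above every TN cow in 8.37%. *SDCBP2* passed the filter on low counts only in comparisons with HS, where it was highest, so this separation is not independent of the filter. Its log2 fold change in HS against PF was 4.45 (SE 0.95, edgeR FDR = 0.294), with an FDR of 0.00956 with DESeq2. *PDCD6IP*, a partner in exosome formation, had a log2 fold change of -0.60 (SE 0.31) in PF against TN (edgeR FDR = 0.709), and *CASK*, a scaffold that binds the tail, one of -0.50 (SE 0.31) in HS against PF (edgeR FDR = 1.00).

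**Figure D4:**
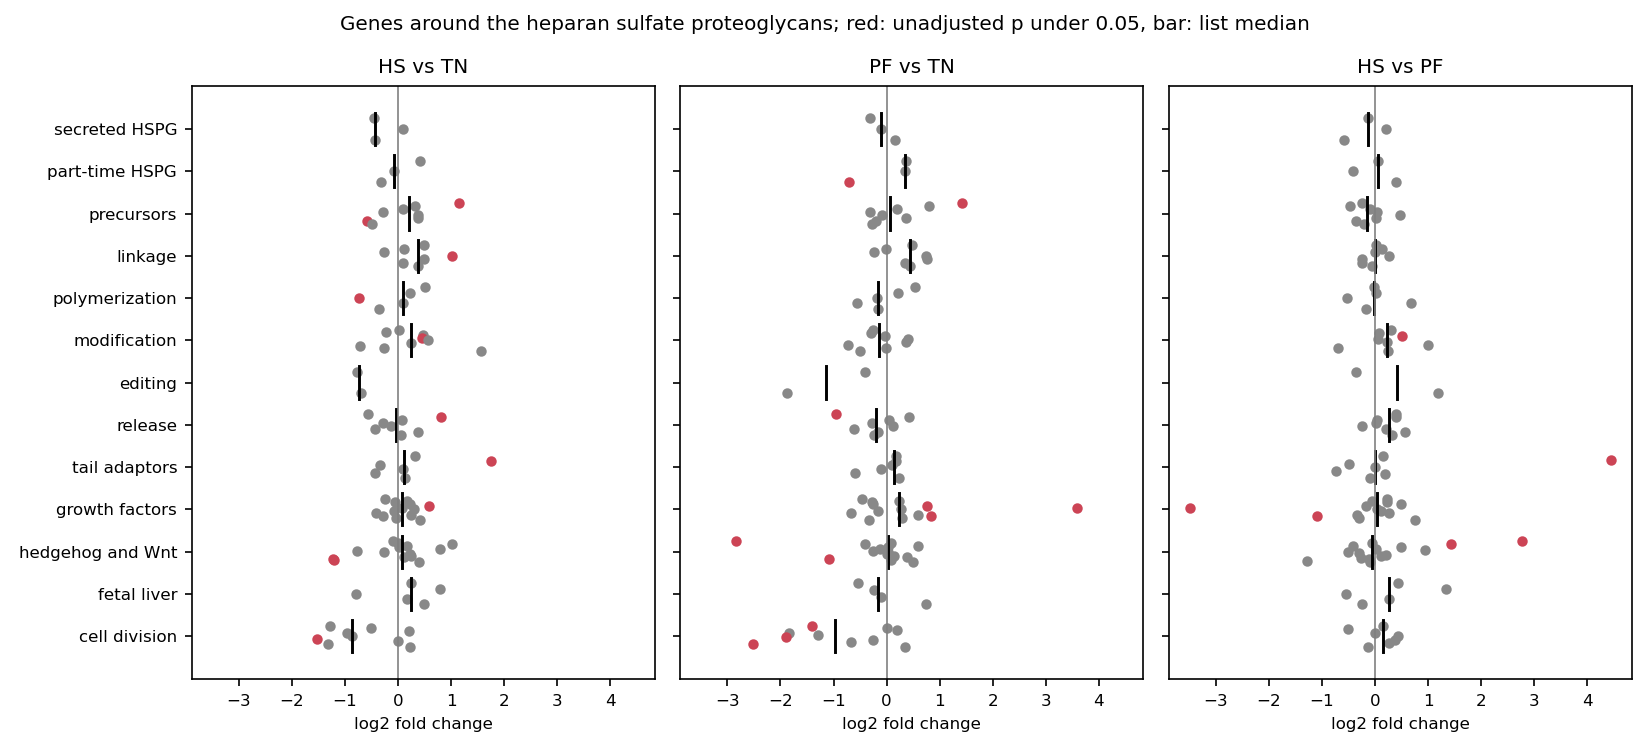
Log2 fold change of each tested gene (points) of 13 lists in HS vs TN, PF vs TN and HS vs PF, with the list median as a black bar and genes with an unadjusted edgeR p under 0.05 in red. The points of most lists lie on both sides of 0, and SDCBP2 is the point farthest to the right in HS vs PF (4.45).

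Growth factors and receptors that use heparan sulfate made up a list of 13 genes. *FGF21*, a liver hormone of fasting that needs the co-receptor *KLB*, had 0, 0.185 and 3.22 CPM in TN, 1.42, 28.5 and 10.2 CPM in PF and 0.960, 2.57 and 0 CPM in HS. PF replicates 2 and 3 were the 2 highest of the 9 cows, and the log2 fold change of *FGF21* was -3.49 (SE 1.06) in HS against PF (edgeR FDR = 0.625). *FGF1* had 11.3, 6.73 and 7.04 CPM in TN, 12.7, 14.1 and 18.1 CPM in PF and 5.50, 7.25 and 8.41 CPM in HS, with all PF cows above all others and a log2 fold change of -1.09 (SE 0.27) in HS against PF (edgeR FDR = 0.405). Every PF cow lay above every TN cow in 6.81% of all genes, and no share was computed for PF above HS. *KLB* had a log2 fold change of 0.77 (SE 0.28) in PF and 0.59 (SE 0.22) in HS against TN (edgeR FDR = 0.705 and 0.485).

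Glypican-3 binds hedgehog and Wnt proteins, and a list of 16 genes was followed, made up of genes of those pathways and *CD81*. Of these, 14 were tested in HS against TN, 14 in PF against TN and 15 in HS against PF. *AXIN2*, a target of Wnt signalling, had 12.1, 9.94 and 9.30 CPM in TN, 5.45, 3.18 and 6.06 CPM in PF and 4.76, 3.39 and 5.38 CPM in HS. All treated cows lay below the TN cows, for which no share of all genes was computed. The fitted log2 fold change of *AXIN2* was -1.23 (SE 0.29) in HS (edgeR FDR = 0.282, and an FDR of 0.0714 with DESeq2) and -1.09 (SE 0.33) in PF (edgeR FDR = 0.693). The ligand genes *SHH* and *DHH* were low. *SHH* had 1.30, 0.865 and 2.33 CPM in TN, 0.355, 0 and 0.255 CPM in PF and 0.775, 1.70 and 1.82 CPM in HS, and *DHH* did not exceed 4.58 CPM in any cow. Their log2 fold changes in HS against PF were 2.76 (SE 0.95) and 1.44 (SE 0.45), with an edgeR FDR of 0.698 and 0.642.

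Proteins that act on lipoprotein remnants beside syndecan-1 were described by their genes. *APOE*, the remnant ligand, had a log2 fold change of 0.59 (SE 0.50) in PF against TN (edgeR FDR = 0.767), and *LIPC*, hepatic lipase, one of -0.38 (SE 0.29) in HS against PF (edgeR FDR = 1.00). Neither passed the test.

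The heparan sulfate proteoglycans of the basement membrane, *HSPG2*, *COL18A1* and *AGRN*, did not follow *GPC3* or *SDC1*. Their log2 fold changes in HS against TN were -0.46 (SE 0.34), -0.43 (SE 0.37) and 0.09 (SE 0.23). *HSPG2* had 44.9 CPM in TN replicate 1, 19.5 and 19.4 CPM in TN replicates 2 and 3, and 19.6 to 21.5 CPM in HS. Of the membrane proteins that only sometimes carry the chains, *TGFBR3* and *NRP1* had log2 fold changes of 0.37 (SE 0.25) and 0.35 (SE 0.27) in PF against TN, and *CD44* one of -0.71 (SE 0.32, edgeR FDR = 0.708).

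Because *GPC3* is known from the fetal liver and from dividing tumour cells, 7 genes of the fetal liver and 10 of cell division were followed. Of the 7 fetal genes, edgeR tested 5 in HS against TN, 4 in PF against TN (not *AFP*) and 5 in HS against PF. No tested fetal gene had an unadjusted edgeR p under 0.05 in any comparison, or was a DEG with edgeR or DESeq2. *AFP*, the fetal serum protein, did not exceed 1.01 CPM in any cow, *H19* had a log2 fold change of -0.80 (SE 0.53) and *IGF2* one of 0.16 (SE 0.45) in HS against TN, and *DLK1* one of 1.33 (SE 0.74) in HS against PF. Of the 10 cell division genes, 7 had a negative and 3 a positive log2 fold change in PF against TN, with a median of -0.98, and 3 had an unadjusted p under 0.05, beside 6.88% of all genes. The 10 genes together summed to 23.5 to 42.2 CPM in TN and 27.0 to 31.0 CPM in PF cows. Among the 3, *BUB1* passed the filter on low counts only in comparisons with TN, where it was higher, so its difference is not independent of the filter. These 3, *CCNA2*, *BUB1* and *MKI67*, were lower in each PF cow than in each TN cow, for which no share of all genes was computed. They had log2 fold changes of -1.89 (SE 0.60), -2.52 (SE 0.82) and -1.41 (SE 0.54), and an edgeR FDR of 0.693, 0.697 and 0.708, whereas *TOP2A*, *CDK1* and *PCNA*, named after their values were seen, had log2 fold changes of 0.0048 (SE 0.46), 0.20 (SE 0.74) and 0.35 (SE 0.34).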

How the data were processed

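The values used are the authors' raw read counts per gene, deposited without normalization for 9 liver libraries, 3 each of TN, PF and HS cows. According to the methods of the study, reads were cleaned with fastp 0.23.2, aligned to ARS-UCD1.2 with STAR 2.7.9a and counted with featureCounts 2.0.3. The annotation release and the strand and multi-mapping settings are not given in the sources used here. Strand being unknown, reads of overlapping genes cannot be told apart.

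The groups were compared in pairs, 6 libraries per fit, by edgeR 4.0.16 in R 4.3.3 (filterByExpr, TMM, quasi-likelihood F test), with Benjamini-Hochberg FDR values over the whole set of tested genes. A test over the 3 groups used all 9 libraries. P-values measure the spread between cows. Libraries held 16874444 to 22557047 counts, and floors for a count of 0 cover counting error only. Pearson's r used log2(CPM + 0.5). DESeq2 1.42.0 was an alternative, beside library sizes without mitochondrial genes, RLE scaling, other filters, all 9 libraries in 1 fit, a replicate block, an FDR under 0.05, a test against the fold threshold and each cow left out in turn. The fits were first tested on simulated data.

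All members were named, and in each gene list the DEGs, or with none the up to 3 genes with the smallest p. *AFP*, *TOP2A*, *CDK1*, *PCNA* and the second values given for a named gene were added for context. The members and lists were chosen with earlier results of these data known. Of the 202 list genes, 201 had a row and the other was not analysed here. A further gene that the naming rule selects is not reported here. RefSeq symbols of ARS-UCD2.0 served only for names and neighbours.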

Additional observations from a re-analysis of the deposited data

How the results depend on the processing

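No paralog was a DEG under any alternative, and 283 of 294 log2 fold changes of the 7 tested members under the alternatives listed under the processing kept their direction. The test against the fold threshold changes only p-values, so its log2 fold changes, which are in this count, could not turn. The direction of *GPC3* and *SDC1* against TN was fixed by their choice. The hepatocyte marker scale, on which the sign of several members turned as given below, is not in this count. *GPC3* and *SDC1* met the DEG criteria against TN with DESeq2 and, in edgeR, with no filter on low counts, and *GPC3* also did in HS with the replicate block. Those contrasts fixed the choice of both genes, so these calls are no support for their rise. The limits lie in 3 cows per group and in TN replicate 1.

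The number of DEGs over all genes moved most. With edgeR it was 13 in HS against TN, 0 in PF against TN and 4 in HS against PF, and with DESeq2 it was 270, 91 and 122. With no filter on low counts it was 124, 136 and 98, with all 9 libraries in 1 fit 4 in HS against TN. An FDR under 0.05 left 0 there, and a test against the fold threshold (glmTreat) 2. RLE size factors and leaving out mitochondrial genes each gave 8 in HS against PF, and at least 10 counts in every library gave 1 in PF against TN. Leaving out 1 cow gave 0 (without HS replicate 2) to 39 (without TN replicate 2) in HS against TN, 0 to 14 (without TN replicate 2) in PF against TN and 5 to 10 in HS against PF. With the replicate block it was 33 in HS against TN, 1 in PF against TN and 6 in HS against PF. No pairing by replicate number was seen in the levels. Of 9 pairs of same-numbered cows, 3 had deviations correlated above 0.1, and 1 of 9 cows correlated best with its own number. The labels do not say whether the numbers carry the matching of feed between PF and HS cows, and with 3 cows per group these correlations cannot decide it.

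Of the genes around the pathway, DESeq2 called 2 in HS against TN (*UGP2* and *AXIN2*), 1 in PF against TN (*UGP2*) and 1 in HS against PF (*SDCBP2*). With no filter edgeR called 2 in PF against TN (*UGP2* and *FGF21*) and 2 in HS against PF (*SDCBP2* and *FGF21*). The rise of *UGP2* against TN was known beforehand.

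The sign of small log2 fold changes turned when 1 cow was left out. Those of *GPC4* ranged from -0.078 (without TN replicate 1) to 0.50 in HS against TN and from -0.29 to 0.32 in PF against TN (-0.26 without TN replicate 1), and *SDC3* from -0.25 (without TN replicate 1) to 0.57 in PF against TN. In HS against PF, *GPC1* ranged from -0.045 to 0.57 and *SDC2* from -0.17 to 0.30. Relative to the hepatocyte markers, a scale added after seeing the data, the log2 difference in HS against TN was -0.30 for *GPC1*, -0.56 for *GPC4*, -0.19 for *SDC2* and -0.16 for *SDC4*. In PF against TN it was -0.81 for *GPC1*, -1.02 for *GPC4*, -0.44 for *SDC2*, -0.96 for *SDC3* and -0.20 for *SDC4*, and in HS against PF 0.039 for *SDC4*. The cause of these changes was not tested.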
